A study of Drosophila melanogaster with 9 samples.

Results

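The genes described here are 9 components of the insulin and TOR pathway of Drosophila melanogaster, namely InR, chico, Pi3K92E, Akt, Tor, raptor, rictor, S6k and foxo. They were chosen by name, as the rows of the deposited gene table whose FlyBase identifier carries one of these symbols or synonyms. No measured value entered this rule, but earlier results of these data were known when the genes were chosen. They are 9 of the 23932 features of the table, and all 9 were among the 13076 features that passed the filter on low counts.

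RNA was sequenced from polysomes, 80S monosomes and total RNA of fly heads, with 3 libraries of each. All libraries came from untreated wild type Dahomey flies, collected as whole young adults whose heads were pooled, and the labels do not give their sex. The polysome libraries hold RNA from the sucrose gradient fractions in which several ribosomes sit on an mRNA, the 80S monosome libraries hold RNA from the fractions of single ribosomes, and the total RNA libraries hold lysate that was set aside before the gradient. The question was how the mRNA content of monosomes and polysomes compares in this tissue.

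Insulin-like peptides bind the receptor tyrosine kinase InR, which recruits the adaptor chico and the lipid kinase Pi3K92E, and the lipid that this kinase makes brings the kinase Akt to the membrane. Akt keeps the transcription factor foxo out of the nucleus and releases the kinase Tor from its inhibitors, and Tor acts in separate complexes, with raptor to drive S6k and protein synthesis and with rictor to activate Akt. In flies the pathway couples nutrition to growth, metabolism and lifespan, and the head holds both the brain that secretes several of the insulin-like peptides and a fat body that responds to them.

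Total counts per library ranged from 13555484 in polysome replicate 1 to 44096558 in 80S monosome replicate 3. The 9 genes were well covered, with between 852.9 counts for chico and 15971 counts for S6k in a single library. Levels are given as CPM, read counts relative to the size of the library after TMM scaling, so that a level is a share of its library, and how much RNA each fraction held was not measured. In a whole head, a lower share of an mRNA in fewer cells and a lower share per cell cannot be told apart. Markers of neurons and photoreceptors were present in every library. The 8 photoreceptor markers summed to between 14200 and 18100 CPM on polysomes, between 17400 and 19500 CPM on 80S monosomes and between 21600 and 24300 CPM in total RNA, and the germ line markers to no more than 39 CPM in any library. The 8 neuronal markers summed to between 7570 and 8190 CPM on polysomes, between 4810 and 5500 CPM on 80S monosomes and between 5720 and 6320 CPM in total RNA, and no marker of the photoreceptor or neuronal list was at 0 throughout. Fat body markers summed to more, between 25400 and 47500 CPM over all libraries, and muscle markers to between 10300 and 15000 CPM. Libraries of the same replicate number deviated together. Replicate 1 had the highest CPM of InR, Pi3K92E, Tor, raptor, rictor and foxo both on polysomes and on 80S monosomes. In both fractions replicate 1 was also the library with the lowest total count, and the part of depth in this was not tested.

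Between polysomes and 80S monosomes, the genes divided into those with a higher and those with a lower level on polysomes. InR and Tor were higher on polysomes by 1.47-fold and 1.35-fold, and chico and S6k were lower, at 0.725 and 0.758 times their 80S level. The TOR partners raptor and rictor had fold changes of 1.25 and 1.31 that missed the threshold in the edgeR fit of all libraries without a block, and passed it with the replicate number as a block. Pi3K92E, Akt and foxo did not pass it, with log2 fold changes between -0.22 and -0.07. All p-values are from edgeR's quasi-likelihood test, Benjamini-Hochberg adjusted over all 13076 features and called at 0.01, and each log2 fold change is polysomes over 80S monosomes unless stated otherwise.

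**Figure D1:**
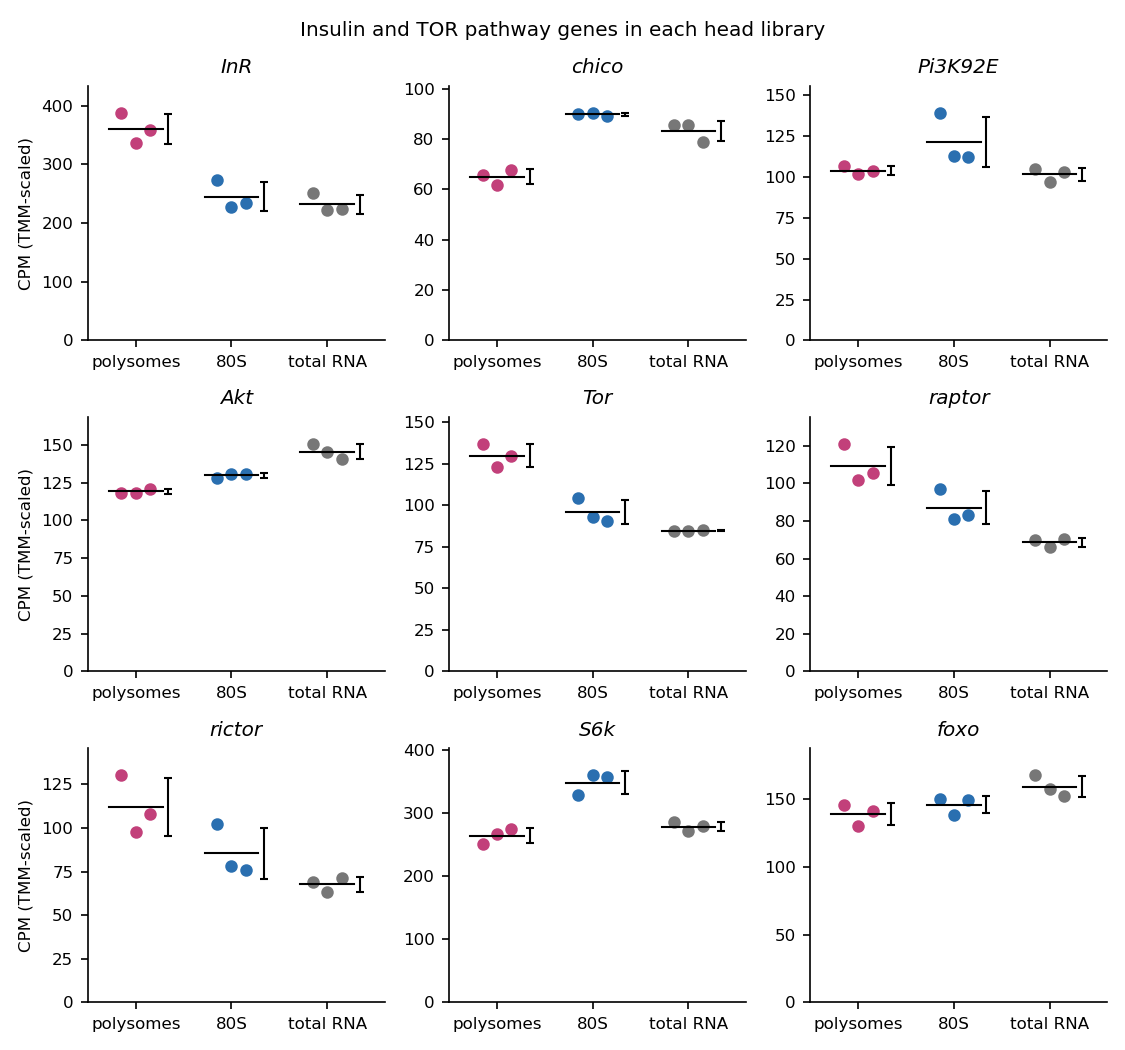
Levels of the 9 genes in each library. The y axis of each panel is CPM after TMM scaling, starting at 0. Each point is 1 library, the horizontal line is the mean of the 3 libraries, and the bar beside them spans the mean ± SD. InR lies between 336 and 387 CPM on polysomes, above all 80S monosome and total RNA libraries, and chico lies between 61.9 and 67.8 CPM on polysomes, below all of them.

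InR (FBgn0283499, chromosome 3R, 21570248 to 21619321 on the minus strand) encodes the insulin receptor. It had 387, 336 and 358 CPM on polysomes in replicates 1, 2 and 3, against 273, 227 and 234 CPM on 80S monosomes and 251, 223 and 224 CPM in total RNA. All polysome libraries thus lay above all others, while the 80S monosome and total RNA libraries overlapped. The log2 fold change was 0.56 ± 0.101 (SE, n = 3 each, edgeR adjusted p = 0.00227), and it was 0.50, 0.57 and 0.61 between the libraries of the same number. Without 80S monosome replicate 2, 80S monosome replicate 3 or polysome replicate 3, the edgeR adjusted p was 0.0129, 0.0132 and 0.012 in turn, above the threshold. These fits had no block, and with the replicate block and all libraries the edgeR adjusted p was 1.63e-06.

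chico (FBgn0024248, chromosome 2L, 10242512 to 10247078 on the minus strand) encodes the fly's insulin receptor substrate, which links InR to the lipid kinase. It had 65.6, 61.9 and 67.8 CPM on polysomes, against 90.2, 90.3 and 89.0 CPM on 80S monosomes and 85.5, 85.8 and 78.8 CPM in total RNA. Its polysome libraries were the lowest of all 9. The log2 fold change of -0.46 ± 0.077 (SE, n = 3 each) had an edgeR adjusted p of 0.00137, and it passed the threshold without any single library. A noncoding RNA is annotated antisense to chico, but the libraries were stranded and counted by strand.

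Pi3K92E (FBgn0015279) encodes the catalytic subunit of the lipid kinase. It had 107, 102 and 103 CPM on polysomes, against 139, 113 and 113 CPM on 80S monosomes and 105, 97.0 and 103 CPM in total RNA. The polysome libraries lay below all 80S monosome libraries, whose spread came mainly from replicate 1. The log2 fold change of -0.22 ± 0.0943 did not pass the threshold (edgeR adjusted p = 0.108, and 0.0191 with the replicate block).

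Akt (FBgn0010379), the protein kinase downstream of the lipid signal, had 118, 118 and 121 CPM on polysomes, against 128, 131 and 130.4 CPM on 80S monosomes and 150.4, 145 and 141 CPM in total RNA. Its 3 groups of libraries did not overlap, with polysomes lowest and total RNA highest, yet the log2 fold change of -0.12 ± 0.0715 between polysomes and 80S monosomes was not past the threshold (edgeR adjusted p = 0.245).

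Tor (FBgn0021796, chromosome 2L, 13004480 to 13013197 on the plus strand) encodes the kinase shared by both TOR complexes. It had 137, 123 and 130 CPM on polysomes, against 104, 93.0 and 90.7 CPM on 80S monosomes and 84.5, 84.7 and 85.0 CPM in total RNA. The groups did not overlap, and they ran from polysomes, the highest, to total RNA, the lowest. On the log2 scale the difference was 0.44 ± 0.0822 (SE, n = 3 each, edgeR adjusted p = 0.00299). Without 80S monosome replicate 2, 80S monosome replicate 3 or polysome replicate 3, the edgeR adjusted p was 0.0164, 0.0172 and 0.0166 in turn. These fits had no block, and with the replicate block and all libraries the edgeR adjusted p was 3.83e-05.

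raptor (FBgn0029840) encodes the subunit that presents substrates to Tor in the complex that acts on S6k. It had 121, 102 and 105 CPM on polysomes, against 97.2, 80.9 and 83.3 CPM on 80S monosomes and 69.7, 66.0 and 70.5 CPM in total RNA. The groups stood in the same order as those of Tor and did not overlap. The log2 fold change of 0.33 ± 0.0974 missed the threshold in the fit without a block (edgeR adjusted p = 0.0309), and passed it with the replicate block (edgeR adjusted p = 0.000828), without 80S monosome replicate 1 (edgeR adjusted p = 0.00749) and in DESeq2 without a block (adjusted p = 0.00181). Part of an exon of raptor is annotated on the same strand as the gene Mipp2, and reads there were shared between the genes, so that the count of raptor is less certain than the others.

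rictor (FBgn0031006) encodes the subunit that marks the other TOR complex, which acts on Akt. It had 130.3, 97.8 and 108 CPM on polysomes, against 102, 78.1 and 76.2 CPM on 80S monosomes and 69.3, 63.1 and 71.3 CPM in total RNA. Replicate 1 of the 80S monosomes lay above polysome replicate 2, so these groups overlapped, although each polysome library was above the 80S monosome library of its own number. Its log2 fold change of 0.39 ± 0.133 missed the threshold in the fit without a block (edgeR adjusted p = 0.055), and passed it with the block (edgeR adjusted p = 0.000609), without 80S monosome replicate 1 (edgeR adjusted p = 0.008) and in DESeq2 without a block (adjusted p = 0.0082).

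S6k (FBgn0283472, chromosome 3L, 5797549 to 5810931 on the minus strand) encodes the kinase that phosphorylates ribosomal protein S6. It had 251, 267 and 274 CPM on polysomes, against 328, 360 and 357 CPM on 80S monosomes and 285, 271 and 279 CPM in total RNA. The 80S monosome libraries were thus the highest of all, and the polysome and total RNA libraries overlapped. Its log2 fold change was -0.40 ± 0.0812 (SE, n = 3 each, edgeR adjusted p = 0.00471, and 0.000149 with the replicate block). Without any one of 8 libraries, that is each but 80S monosome replicate 1, it was no longer past the threshold, with edgeR adjusted p-values of up to 0.0318 and log2 fold changes between -0.43 and -0.33. These fits had no block.

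foxo (FBgn0038197), the transcription factor that insulin signalling inhibits, had 146, 130.4 and 141 CPM on polysomes, against 150, 139 and 149 CPM on 80S monosomes and 168, 157 and 153 CPM in total RNA. The polysome and 80S monosome libraries overlapped, and the log2 fold change was -0.07 ± 0.0818 (edgeR adjusted p = 0.578).

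Of the 9 genes, 2 were called higher and 2 lower on polysomes than on 80S monosomes, and with the replicate block 4 were called higher and 2 lower. Over all 13076 features 7.87% were called higher and 4.31% lower, and with the block 12.8% and 14.2%. The libraries did not overlap in 3 genes in the higher direction and in 4 in the lower direction, against 15.9% and 20.6% of all features. With 9 genes, these shares were not read as a difference from the rest of the transcriptome, and the median log2 fold change of the 9 genes, at -0.07, lay beside that of all features, at -0.08. With RLE size factors the split was 2 higher and 1 lower. InR alone was called in a fit of the 6 libraries compared, and chico alone without 80S monosome replicate 2, 80S monosome replicate 3 or polysome replicate 3. Markers of neurons also moved between these fractions, with 5 of 8 called higher on polysomes and a median of 0.68 over the 8 on the log2 scale, while 1 of 8 photoreceptor markers was called lower. The part of a shift between cell types in the values of the 9 genes was not tested.

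**Figure D2:**
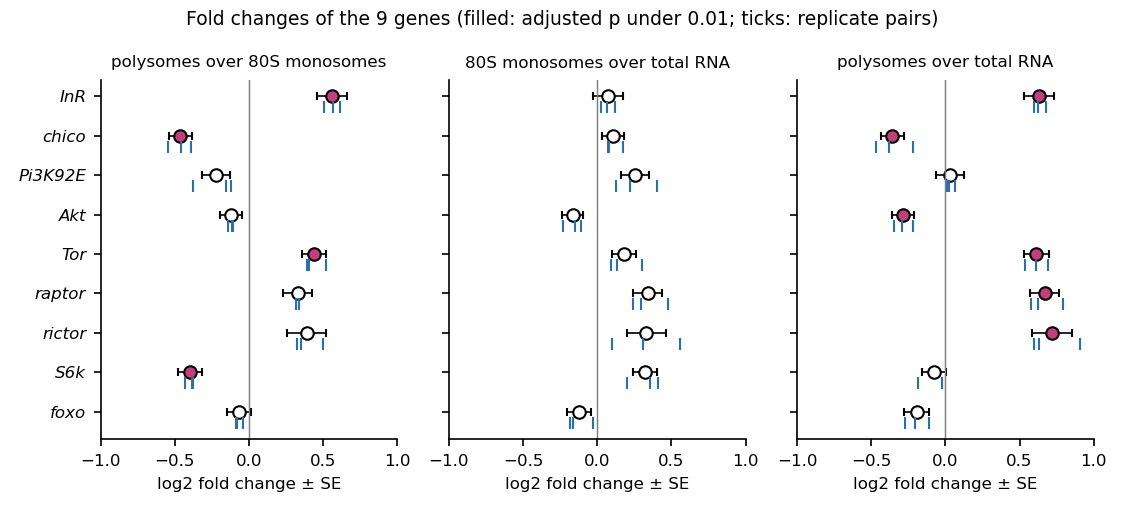
Log2 fold changes of the 9 genes in the 3 comparisons. The x axis is the log2 fold change, each circle is the estimate over 3 libraries a group with its SE as a bar, filled circles have an edgeR adjusted p under 0.01 without a block, and the short ticks are the differences between libraries of the same replicate number. On polysomes over total RNA InR, Tor, raptor and rictor lie between 0.61 and 0.72, and chico and Akt lie at -0.36 and -0.29.

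On 80S monosomes against total RNA, none of the 9 genes was called by edgeR without a block, against 6.68% of all features called higher and 8.95% called lower. At an unadjusted p under 0.05 the edgeR test held 4 genes in the higher direction and 1 in the lower, against 19.1% and 22.4% of all features, and DESeq2 called 2 higher, against 11.7% of the features it tested. With the replicate block edgeR called 4 genes higher and 0 lower, against 15.3% and 19.2% of all features. These were S6k, at a log2 fold change of 0.32 (edgeR adjusted p = 0.0121 without the block and 0.000818 with it), raptor at 0.34 (0.0221 and 0.000501), rictor at 0.33 (0.0823 and 0.00252) and Pi3K92E at 0.26 (0.0588 and 0.00587). S6k also passed the threshold without a block when 80S monosome replicate 1 was left out (edgeR adjusted p = 0.0066).

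The other 5 genes had log2 fold changes of 80S monosomes over total RNA between -0.16 for Akt and 0.18 for Tor. In 6 genes the 80S monosome libraries lay above all total RNA libraries and in 2, Akt and foxo, below them, against 22.8% and 25.6% of all features. InR was the exception, with overlapping groups and a log2 fold change of 0.07 ± 0.1, which was -0.01 without 80S monosome replicate 1 and less than 0 also without total RNA replicate 3. The median of the 9 genes was 0.18, beside -0.02 for all features. In this comparison 5 of 7 muscle markers and 2 of 7 glial markers were called lower and 1 glial marker higher, and their part in the values was not tested.

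On polysomes against total RNA, the receptor gene InR and Tor, raptor and rictor had higher levels, while Lst8, another TOR complex gene outside the 9, was lower at a log2 fold change of -0.72. InR, Tor, raptor and rictor were higher by 1.55, 1.53, 1.59 and 1.65-fold, with log2 fold changes of 0.63 ± 0.101, 0.61 ± 0.0824, 0.67 ± 0.0978 and 0.72 ± 0.134 (SE, n = 3 each) and edgeR adjusted p-values of 0.000799, 0.000327, 0.000519 and 0.00188. These 4 calls held in all 18 alternative settings, which include each library left out. The adaptor chico was lower at a log2 fold change of -0.36 ± 0.077 (edgeR adjusted p = 0.00409) and Akt at -0.29 ± 0.0715 (edgeR adjusted p = 0.00895). Pi3K92E, S6k and foxo did not pass, with log2 fold changes of 0.03, -0.08 and -0.19. Cell type markers moved in the same comparison. Of the neuronal markers 5 of 8 were called higher, with a median log2 fold change of 0.42 over the list, while 4 of 7 muscle markers were called lower and 1 higher, and 2 of 7 glial markers were called lower, with medians of -0.54 and -0.53. Their part in the values of the 9 genes was not tested.

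The counts of 4 higher and 2 lower genes were the same with the replicate block. They stand beside 10.4% higher and 12.2% lower over all features without the block, and 17.9% and 23.4% with it. The libraries did not overlap in 4 genes in the higher and 3 in the lower direction, against 24.8% and 28.8% of all features, and the medians were 0.03 for the 9 genes and -0.05 for all features. The lower calls were the less firm. chico lost its call when any 1 of the polysome or total RNA libraries was left out, with edgeR adjusted p-values of up to 0.0521 without total RNA replicate 1, and Akt without any 1 library except 80S monosome replicate 1, with up to 0.118 without total RNA replicate 1. With RLE size factors the split was 4 higher and 0 lower.

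The comparisons share libraries, so the values of a gene in them are not independent. Side by side, S6k had the highest level on 80S monosomes, with log2 fold changes of -0.40 on polysomes over 80S monosomes, 0.32 on 80S monosomes over total RNA and -0.08 on polysomes over total RNA. Tor had values of 0.44, 0.18 and 0.61 in the same comparisons, raptor 0.33, 0.34 and 0.67, and rictor 0.39, 0.33 and 0.72. In InR the difference lay between polysomes and both other groups, at 0.56, 0.07 and 0.63, and in chico likewise in the other direction, at -0.46, 0.11 and -0.36.

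Levels of different genes were compared as CPM per kb of annotated exon. On polysomes the order was S6k with 54.0 CPM per kb, foxo with 33.7, InR with 31.7, Akt with 24.4, Pi3K92E with 21.5, chico with 18.2, rictor with 16.6, Tor with 16.2 and raptor with 15.4. The ranges of foxo and InR overlapped, as did those of all neighbours from chico down. On 80S monosomes S6k had 71.2 CPM per kb and foxo 35.4, while Akt, Pi3K92E and chico had 26.5, 25.1 and 25.1, with Pi3K92E overlapping the other 2. Below them InR had 21.5 CPM per kb, and rictor, raptor and Tor, at 12.7, 12.3 and 12.0, overlapped.

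In total RNA the order was S6k with 57.0 CPM per kb, foxo with 38.6, Akt with 29.8, chico with 23.3, Pi3K92E with 21.0, InR with 20.4, Tor with 10.6, rictor with 10.1 and raptor with 9.69. The ranges over 3 libraries of Pi3K92E and InR overlapped there, as did those of rictor and raptor. The other neighbours in this order did not overlap, but the ranges of Tor and rictor met at 10.6 CPM per kb when rounded. InR thus ranked above Akt, Pi3K92E and chico on polysomes, with no overlap. In total RNA it lay below Akt without overlap, and its mean lay below those of Pi3K92E and chico with overlapping ranges. The ratio of the highest to the lowest gene was 3.51 on polysomes, 5.93 on 80S monosomes and 5.88 in total RNA.

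**Figure D3:**
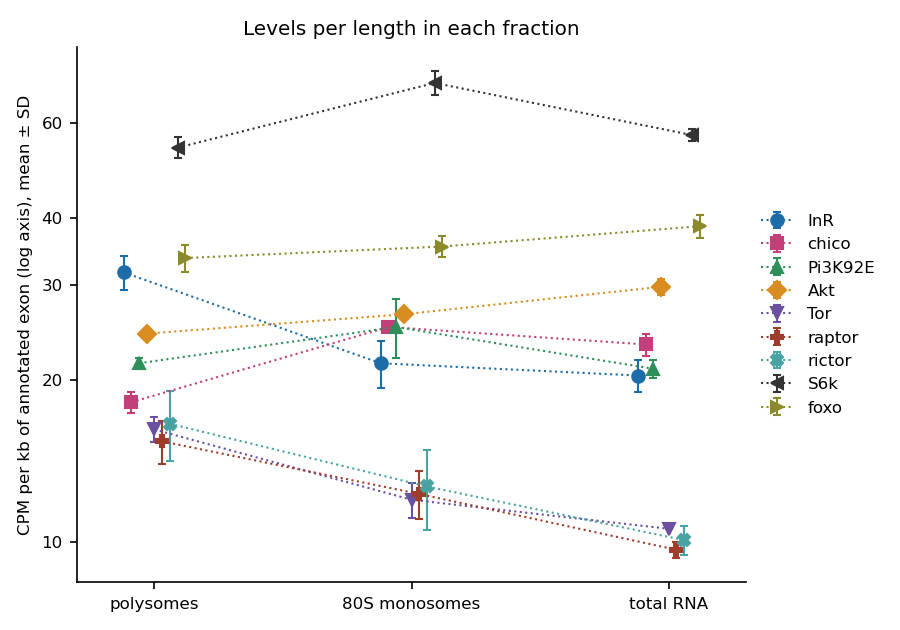
Levels per length of the 9 genes. The y axis is CPM per kb of annotated exon on a log axis, each symbol is the mean of 3 libraries with its SD as a bar, and dotted lines join the values of 1 gene. InR lies at 31.7 CPM per kb on polysomes, above Akt at 24.4, and at 20.4 in total RNA, below Akt at 29.8.

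Ratios between genes of 1 library do not depend on how libraries are scaled. The following pairs were chosen after the values were seen, and no test was run on them. Per kb, InR was 1.86, 1.71 and 1.66 times chico on polysomes, against 0.953, 0.79 and 0.828 times on 80S monosomes and 0.924, 0.816 and 0.892 times in total RNA. By this length the receptor exceeded its adaptor in the 3 polysome libraries, and in no other library. Whether a ratio lies above 1 depends on the length used. The annotated exons of InR span 11367 bases, against 10706 bases for its longest transcript, and a shorter length would raise each ratio of InR to chico. The order of the libraries by this ratio does not depend on the length. Tor was 0.333, 0.282 and 0.29 times S6k on polysomes, against 0.195, 0.158 and 0.156 times on 80S monosomes and 0.181, 0.191 and 0.187 times in total RNA. The kinase and its downstream kinase thus stood closer on polysomes. The ratio of raptor to rictor, which mark the separate TOR complexes, averaged 0.933 ± 0.0554 on polysomes, 0.975 ± 0.0672 on 80S monosomes and 0.963 ± 0.0283 in total RNA (SD, n = 3 each), and these ranges overlapped.

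The 9 genes differ in coding length. The 4 genes with a positive log2 fold change on polysomes over 80S monosomes had longest annotated coding sequences of 1621 codons for raptor, 1936 for rictor, 2144 for InR and 2471 for Tor. The 5 genes with a negative one had between 490 codons for S6k and 1088 for Pi3K92E, so that the lengths of both sets did not overlap. Among 54 other tested genes of the pathway, 6 had coding sequences longer than that of Pi3K92E. Of these, sgg, Tsc1 and Iml1 had positive log2 fold changes of 0.36, 0.03 and 0.01, and SNF4Agamma, gig and Lk6 negative ones of -0.04, -0.23 and -0.87, none of them past the threshold except Lk6. By the median over their coding transcripts sgg, at 514 codons, and SNF4Agamma, at 906, were shorter than Pi3K92E. Of the 48 genes shorter by their longest coding sequence, 8 had a positive and 40 a negative log2 fold change. Their median was -0.18, beside -0.12 over all protein-coding genes tested. The part of coding length in the values was not tested.

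**Figure D4:**
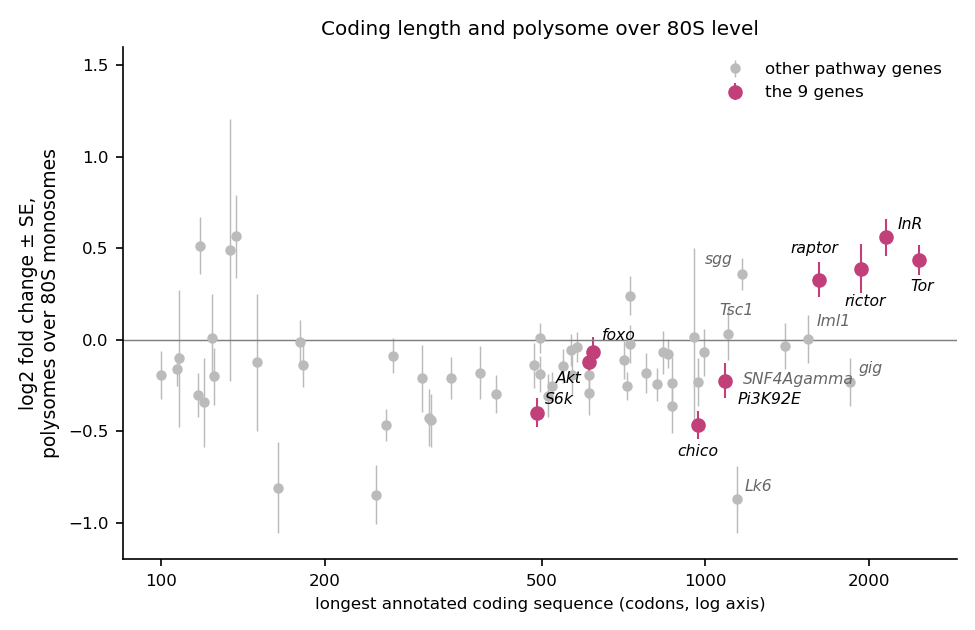
Coding length and the level on polysomes over 80S monosomes. The x axis is the longest annotated coding sequence in codons on a log axis and the y axis is the log2 fold change with its SE, for the 9 genes and for 53 of 54 other genes of the pathway, since Ilp1 at 2.72 lies above the range drawn. InR, Tor, raptor and rictor, with 1621 codons or more, lie between 0.33 and 0.56, and the genes of 1100 to 1847 codons that are not among the 9 lie between -0.87 and 0.36.

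A list of 56 other genes of the pathway gives the surroundings of the 9 genes. Of these 55 were found in the table, with Lobe not analysed here, and 54 passed the filter, with Ilp7 at no more than 9 counts in any library. On polysomes over 80S monosomes 1 was called higher and 3 lower. The log2 fold change was positive in 11 and negative in 43, with a median of -0.17. The median was -0.08 over all features and -0.12 over all protein-coding genes tested. Of all features 57.7% lay below the value of Lamtor1, -0.0117, so most features were negative too. With the replicate block 4 genes of the list were called higher and 10 lower. Over all features the shares called were 7.87% higher and 4.31% lower without the block, and 12.8% and 14.2% with it, and nothing particular to the list was read from its counts.

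The gene called higher was Ilp1, an insulin-like peptide, at a log2 fold change of 2.72 ± 0.542 (SE, n = 3 each, edgeR adjusted p = 0.00415). Its level was very low, with 1.54, 0.43 and 1.28 CPM on polysomes, against 0.104, 0.197 and 0.134 CPM on 80S monosomes and 0.334, 0.248 and 0.506 CPM in total RNA, which is between 2.5 and 30 counts per library. The genes called lower all belong to the outputs of TOR and foxo. They were eIF4E1, the cap-binding protein, at -0.47 ± 0.0866 (edgeR adjusted p = 0.00265), RpS6, the ribosomal protein that S6k phosphorylates, at -0.85 ± 0.161 (edgeR adjusted p = 0.00303), and Lk6, a kinase of eIF4E1, at -0.87 ± 0.182 (edgeR adjusted p = 0.00541). None of these 4 calls held without polysome replicate 3, where the edgeR adjusted p was 0.0238 for Ilp1, 0.0144 for eIF4E1, 0.0195 for RpS6 and 0.033 for Lk6, and the list held 2 calls without 80S monosome replicate 2 or 3, polysome replicate 2, or total RNA replicate 2 or 3.

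RpS6 had 259, 225 and 216 CPM on polysomes, against 544, 349 and 367 CPM on 80S monosomes and 474, 386 and 442 CPM in total RNA. Its polysome libraries lay below all others. Lk6 had 4603, 3379 and 3477 CPM on polysomes, against 8835, 6292 and 5873 CPM on 80S monosomes and 3651, 2917 and 2848 CPM in total RNA. Like S6k it was highest on 80S monosomes, in all 3 libraries, and its log2 fold change of 80S monosomes over total RNA was 1.16 (edgeR adjusted p = 0.00116). eIF4E1 had 86.1, 97.4 and 93.7 CPM on polysomes, against 118, 133 and 134 CPM on 80S monosomes and 184, 200.4 and 197 CPM in total RNA, so that it was lowest on polysomes and highest in total RNA, with no overlap.

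The remaining groups of the list held no call on polysomes over 80S monosomes in the edgeR fit of all libraries without a block. Of 9 regulators near the receptor and the lipid kinase, 3 had a positive log2 fold change. The most abundant of them per kb was wdb, a regulatory subunit of a protein phosphatase that acts on Akt, with a log2 fold change of -0.11. Of 7 partners of TSC, Rheb and the TOR complexes, 2 had a positive log2 fold change. They include sgg, a glycogen synthase kinase that Akt inhibits and the most abundant of them per kb, at 0.36 (edgeR adjusted p = 0.013, and 0.000827 with the replicate block). Without a block sgg passed the threshold with RLE size factors (edgeR adjusted p = 0.00976), on nuclear protein-coding genes (0.00775), with a filter of 1 CPM in 3 libraries (0.00898) and without polysome replicate 1 (0.0083). The partners also include Lst8 and Sin1, further subunits of the TOR complexes, at -0.44 (edgeR adjusted p = 0.0459, and 0.00474 with the block) and -0.20 (edgeR adjusted p = 0.229). The sign for Lst8 was thus opposite to that for Tor, raptor and rictor. Of 19 genes of amino acid and energy sensing, 17 had a negative log2 fold change, which most features of the table had too. Their median was -0.19, beside -0.12 over all protein-coding genes tested. The most abundant of them per kb, alc, stood at -0.21. Of the 9 tested ligands and binding proteins Ilp1 was the one called, and ImpL2, a secreted binding protein of insulin-like peptides and the most abundant per kb, stood at -0.09.

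On 80S monosomes over total RNA 6 of the 54 genes were called higher and 7 lower, and with the replicate block 11 and 13, beside 6.68% and 8.95% of all features without the block and 15.3% and 19.2% with it. The higher ones include the 2 subunits of the TSC complex, the inhibitor of TOR, with log2 fold changes of 0.70 for Tsc1 and 0.61 for gig, and the lower ones Rheb, the GTPase that activates TOR, at -0.60, and Thor, the inhibitor of eIF4E1, at -0.71 (edgeR adjusted p = 0.00428, 0.00577, 0.00393 and 0.00172). On polysomes over total RNA 4 were called higher and 11 lower, and with the block 10 and 19, beside 10.4% and 12.2% of all features without the block and 17.9% and 23.4% with it. Tsc1 was among the higher at 0.73, and Rheb at -0.74, Lst8 at -0.72, Thor at -1.01 and eIF4E1 at -1.07 among the lower (edgeR adjusted p = 0.00247, 0.00095, 0.00278, 0.000179 and 1.5e-05). On polysomes over total RNA Tsc1 thus changed in the direction of Tor, raptor and rictor, and Rheb and Lst8 in the other direction. Tsc1, gig, Rheb, Lst8 and Thor were picked after their values were seen, and their single calls were not recomputed under the alternatives. Their longest coding sequences had 1100 codons for Tsc1 and 1847 for gig, against 182 for Rheb, 313 for Lst8 and 117 for Thor. The part of coding length was not tested. The 80S monosome counts fell to 8, 6, 3 and 5 genes without 80S monosome replicate 3 or total RNA replicate 1, 2 or 3, and the polysome counts to 8, 8, 5 and 6 without polysome replicate 1 or total RNA replicate 1, 2 or 3.

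The genes whose levels varied most like those of InR, Tor and foxo over the 9 libraries were sought among 6163 other protein-coding genes of at least 10 CPM. The measure was the Euclidean distance between log2 CPM values centred over the 9 libraries, which leaves out the height of the level. Nearest to InR were Hipk at 0.127, CG2278 at 0.134 and jvl at 0.138, with a median distance of 1.17 over all candidates. Nearest to Tor were Remo at 0.123, Vps13 at 0.125 and CG45002 at 0.127, with a median of 1.07, and nearest to foxo were Atf6 at 0.104, fzr at 0.134 and CG12567 at 0.14, with a median of 0.71. Within the 9 genes Akt and foxo were the closest pair, at 0.196, followed by raptor and rictor at 0.211 and InR and Tor at 0.235, and chico and rictor were the farthest apart at 1.46.

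Transcript counts of the 9 genes were compared between polysomes and 80S monosomes as shares of each gene. None was called by edgeR's diffSpliceDGE at an adjusted p under 0.01, against 16 of 6108 genes or 0.262% over the whole table. The smallest unadjusted Simes p of the 9 genes was 0.906, for InR, and no other tool was run on the shares. Reads that fit several transcripts were split evenly, which draws the shares of a gene together, so that the transcripts of Tor and of raptor each stood at 50%. Over all libraries the shares lay between 32.7% and 34% for chico, 33% and 33.9% for Pi3K92E, and 32.9% and 33.5% for rictor. A difference between such transcripts could hardly be seen, so 0 calls among the 9 genes do not show that their shares were equal. S6k had 2 transcripts with the same coding sequence of 490 codons and 3′UTRs of 1482 and 2881 bases. The longer, of 4885 bases, spans all annotated exon bases of the gene, so reads of the shorter one fit both. Even splitting therefore compresses a shift between them, and a small one could be missed. The transcript with the longer 3′UTR held 61.2% ± 0.39 of the S6k counts on polysomes, 61.3% ± 0.291 on 80S monosomes and 61.0% ± 0.449 in total RNA (SD, n = 3 each), which differed by less than the spread between libraries.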

How the data were processed

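RNA was sequenced from heads of wild type flies in 9 libraries, 3 each of polysomes, 80S monosomes and total RNA. The authors removed ribosomal RNA, prepared libraries that keep the strand, trimmed reads with Trimmomatic 0.33, mapped them to BDGP6 with STAR 2.7.10a and counted them by strand with featureCounts 2.0.1. They deposited estimated counts per gene and per transcript without normalization, in which a read that fits several places or features is split between them.

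The counts were rounded and tested with edgeR 4.0.16 (R 4.3.3), using filterByExpr, TMM and robust quasi-likelihood fits over all 9 libraries without a block. The Benjamini-Hochberg adjustment covered all features tested, with a threshold of 0.01 as in the study. The SE of a log2 fold change was taken as its size over the root of the F statistic. Symbols and lengths came from a newer Ensembl annotation of BDGP6, which matched 23851 of 23932 features. Coordinates are from that annotation. Alternatives were RLE size factors, DESeq2 1.42.0 with a local fit, scaling and fitting on nuclear protein-coding genes, 2 other filters, the 6 libraries compared, a replicate block with either tool, each library left out, and a threshold of 0.05.

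Total RNA was part of the lysate, and libraries of the same number deviated together from their group means (correlations of 0.179 to 0.416 in 9 of 9 pairs). The numbers were therefore taken to pair the libraries. The main fit and the fits with a library left out did not use this pairing. Calls lost in them were lost without the block, and no library was left out of a fit with the block. No source says whether replicates were separate collections of flies, and p-values then measure the spread between these libraries.

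The 9 genes, the pathway list and the marker lists were chosen with earlier results of these data known. Named genes are the 9, each gene of the pathway list past the threshold on polysomes over 80S monosomes, the most abundant per kb in each group of the list, and the 3 most like InR, Tor and foxo. The genes Lst8, Sin1, Tsc1, gig, Rheb, Thor, Iml1 and SNF4Agamma were named after their values were seen.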

Additional observations from a re-analysis of the deposited data

How the results depend on the processing

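The direction and call of a single gene were kept in 787 of the 914 values recomputed under the alternatives, 43 gained a call, 75 lost it and 9 changed direction. Many of these values were not called in the main fit, and at a threshold of 0.05 no call can be lost. On polysomes over 80S monosomes, InR, chico, Tor and S6k kept their calls in 15, 17, 14 and 7 of 18 alternatives. RpS6, Lk6 and eIF4E1 kept theirs in 15, 11 and 10 of 18, and Ilp1 in 12 of 17. On polysomes over 80S monosomes, the count of 4 called genes among the 9 became 1 in a fit of the 6 libraries compared, where chico, Tor and S6k had adjusted p-values of 0.0183, 0.0101 and 0.0582, and 1 to 6 with a library left out. It was 3 with RLE size factors and 3 on nuclear protein-coding genes, 2 higher and 1 lower in each, and 6 with DESeq2. On 80S monosomes over total RNA the count of 0 became 2 with DESeq2, 1 on nuclear protein-coding genes, 2 at a threshold of 0.05 and 0 to 1 with a library left out. On polysomes over total RNA it was 6, and 4 to 6 with a library left out, and 4 with RLE size factors and on nuclear protein-coding genes.

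With the replicate block, which pairs the libraries, the counts for the 9 genes were 6, 4 and 6 in the 3 comparisons, also with DESeq2, and those for the pathway list were 14, 24 and 29, and 13, 30 and 27 with DESeq2, against 4, 13 and 15 without a block. Without a block the list held 7 and 20 calls with DESeq2 in the first 2 comparisons, 1 in a fit of the 6 libraries of polysomes and 80S monosomes, and 10, 21 and 24 at a threshold of 0.05. With a library left out it held 0 to 4, 3 to 14 and 5 to 20. Isoform calls stayed at 0.

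The changes of direction were all in values short of the threshold. With a library left out, the log2 fold change of ImpL2 on polysomes over 80S monosomes was between -0.1555 and 0.0316, with the positive value without polysome replicate 1. On 80S monosomes over total RNA that of InR was between -0.011 and 0.149, negative without 80S monosome replicate 1 or total RNA replicate 3, and that of RpS6 between -0.2771 and 0.0672, positive without 80S monosome replicate 2 or 3 or total RNA replicate 1. On polysomes over total RNA that of S6k was between -0.1084 and 0.0177, positive without total RNA replicate 1, and 0.0199 on nuclear protein-coding genes, and that of alc between -0.053 and 0.1451, negative without polysome replicate 2. The cause of these changes was not tested. No scaling moved the median of all features by more than 0.1. In simulated data with 4-fold changes, 177 of 197 changed genes were recovered, and changes as small as those of the 9 genes were not simulated.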
